A study of Mus musculus with 4 samples.

Results

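The insulin-like growth factor (IGF) system was examined through 9 genes: the ligand Igf1, the receptors Igf1r and Insr, the receptor substrates Irs1 and Irs2, and the binding proteins Igfbp3, Igfbp4, Igfbp5 and Igfbp7. The list was drawn up with earlier results of these data known. Rows were matched by gene name, and all 9 had a row among the 19353 genes counted. The cells were muscle satellite cells (MuSCs), the stem cells that lie between a myofiber and its basal lamina, from the plantaris muscle of Pax7-CreERT2:Rosa-YFP mice. In these mice tamoxifen lets a Cre recombinase driven by the MuSC gene Pax7 switch on yellow fluorescent protein (YFP), so a sorted cell is one in which Cre had acted, whatever it expressed later. The overloaded group had the distal tendons of the gastrocnemius and soleus cut (tenotomy), which shifts load to the plantaris, and the sham group had a skin incision only. Both groups carried the same alleles, and cells were sorted at 4 days after surgery. The age of the mice was not given in the sources used here.

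There were 2 libraries per group, each made from a tube of 100 sorted cells by CEL-Seq2. This method reads the poly(A) end of a transcript and marks each captured molecule with a unique molecular identifier (UMI), and a count is therefore a number of molecules, which does not grow with transcript length. The sham libraries held 269683 and 260488 UMIs, or 2697 and 2605 per cell. The overloaded libraries held more, 387955 and 483528 UMIs, or 3880 and 4835 per cell. How much of this difference came from RNA in the tubes, and how much from capture or sequencing depth, was not tested. Levels are given as CPM, that is, scaled to a common library total, after correction by the trimmed mean of M-values (TMM), so a value is a gene's part of its library. A count of 3 was worth 13.1 and 13.6 CPM in the sham libraries and 7.80 and 6.08 CPM in the overloaded ones. Libraries of one group differed by somewhat more than sampling noise, the chi-square over its degrees of freedom being 1.36 for sham and 1.57 for overloaded, against 7.61 to 9.31 across groups. Whether the libraries represent separate mice is not given by the labels, nor whether sham and overloaded muscle came from opposite legs of the same mice, as in other experiments of the study, so p-values measure only the spread between these libraries. In pooled cells, fewer cells of a type and less RNA per cell cannot be told apart.

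IGF-1 binds the receptor tyrosine kinase encoded by Igf1r, and insulin binds the related receptor encoded by Insr. Both receptors phosphorylate IRS proteins, which recruit phosphoinositide 3-kinase (PI3K) and thereby activate Akt and the mTOR complexes that promote protein synthesis. IGF-binding proteins are secreted, hold IGFs outside the cell and can limit or prolong their action. In skeletal muscle the pathway is known for its part in growth of myofibers and in proliferation and differentiation of myogenic cells.

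The substrates Irs1 and Irs2 gave the widest split among the 9 genes, so their promoters are shown. Each line holds the 250 bases before the RefSeq transcript start (GRCm38.p6), read 5′ to 3′ on the minus strand, at chr1:82291440-82291689 for Irs1 and chr8:11008930-11009179 for Irs2. Capitals mark the 2 longest runs of bases that both windows share, each of 10 bases and overlapping each other: GTCACGTGTT, which holds the palindrome CACGTG known as an E-box, and TGTTTTGCTC.
Irs1: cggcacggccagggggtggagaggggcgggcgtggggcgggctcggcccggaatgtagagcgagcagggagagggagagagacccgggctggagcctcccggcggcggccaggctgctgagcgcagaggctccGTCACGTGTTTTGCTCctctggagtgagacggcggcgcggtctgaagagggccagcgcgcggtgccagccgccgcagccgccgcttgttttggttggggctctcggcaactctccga
Irs2: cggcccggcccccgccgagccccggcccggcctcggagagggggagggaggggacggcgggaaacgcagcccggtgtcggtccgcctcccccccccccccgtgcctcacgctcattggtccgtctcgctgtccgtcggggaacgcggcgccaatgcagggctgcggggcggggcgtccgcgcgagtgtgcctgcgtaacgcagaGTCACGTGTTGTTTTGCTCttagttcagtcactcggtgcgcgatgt
The first run starts 117 bases before the RefSeq start of Irs1 and 46 bases before that of Irs2, and the second starts 111 and 37 bases before. They share 4 bases in Irs1 and 1 base in Irs2. In the GENCODE M21 annotation the genes begin at 82291416 (Irs1) and 11008458 (Irs2), so distances from those starts are larger. Over windows that also take in 50 bases after the start, each run was present on either strand in 25 of 32851 RefSeq windows of 300 bases, or 0.08%. The runs were picked because both windows share them, and how often other runs of 10 bases occur was not counted. CACGTG alone was in 7.15% of these windows, and of the 8 genes with a window (Insr is named only) it was found in Irs1 and Irs2. The letters TGTTTTG, searched on both strands, were in 6.28% of all windows and, of the 8, again in Irs1 and Irs2, where they open the second run. The TATA letters TATAAA were found in Igfbp4 (13.62% of all windows), and CCAAT was found in Irs2 and Igf1 (37.41%). These motifs were chosen after the windows had been read, and a match describes letters, not a bound site. G and C made up 71.3% of the Irs1 window and 72.0% of the Irs2 window, against a median of 52.7% over all windows, and the windows of Igf1r (76.0%), Igfbp7 (73.3%), Igfbp3 (71.7%) and Igfbp4 (71.3%) held similar shares, while those of Igfbp5 (56.3%) and Igf1 (52.3%) held less.

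After tenotomy the transcripts of the IGF receptor, the ligand and Irs2 were lower, and those of Irs1, Igfbp3 and Igfbp7 were higher, relative to the other transcripts of the libraries. All 9 genes passed the filter on low counts, but Irs1 and Igfbp3 did so only because their overloaded counts were high. In edgeR's quasi-likelihood test at an adjusted p of 0.1, 3 of the 9 were higher, 3 were lower and 3 did not pass. Over the 7228 genes tested, 25.8% were called higher and 26.3% lower, so the 6 calls among 9 genes stand against a background in which 1868 genes rose and 1898 fell. For the 9 genes the median of the log2 fold changes was -0.05, against 0.05 over all genes tested. CPM values of the groups did not overlap for 7 of the 9 genes, whereas 72.9% of all tested genes met the same condition. With 2 libraries against 2, an exact permutation test cannot give a two-sided p under 0.333, and the p-values therefore rest on a spread estimated across genes.

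**Figure D1:**
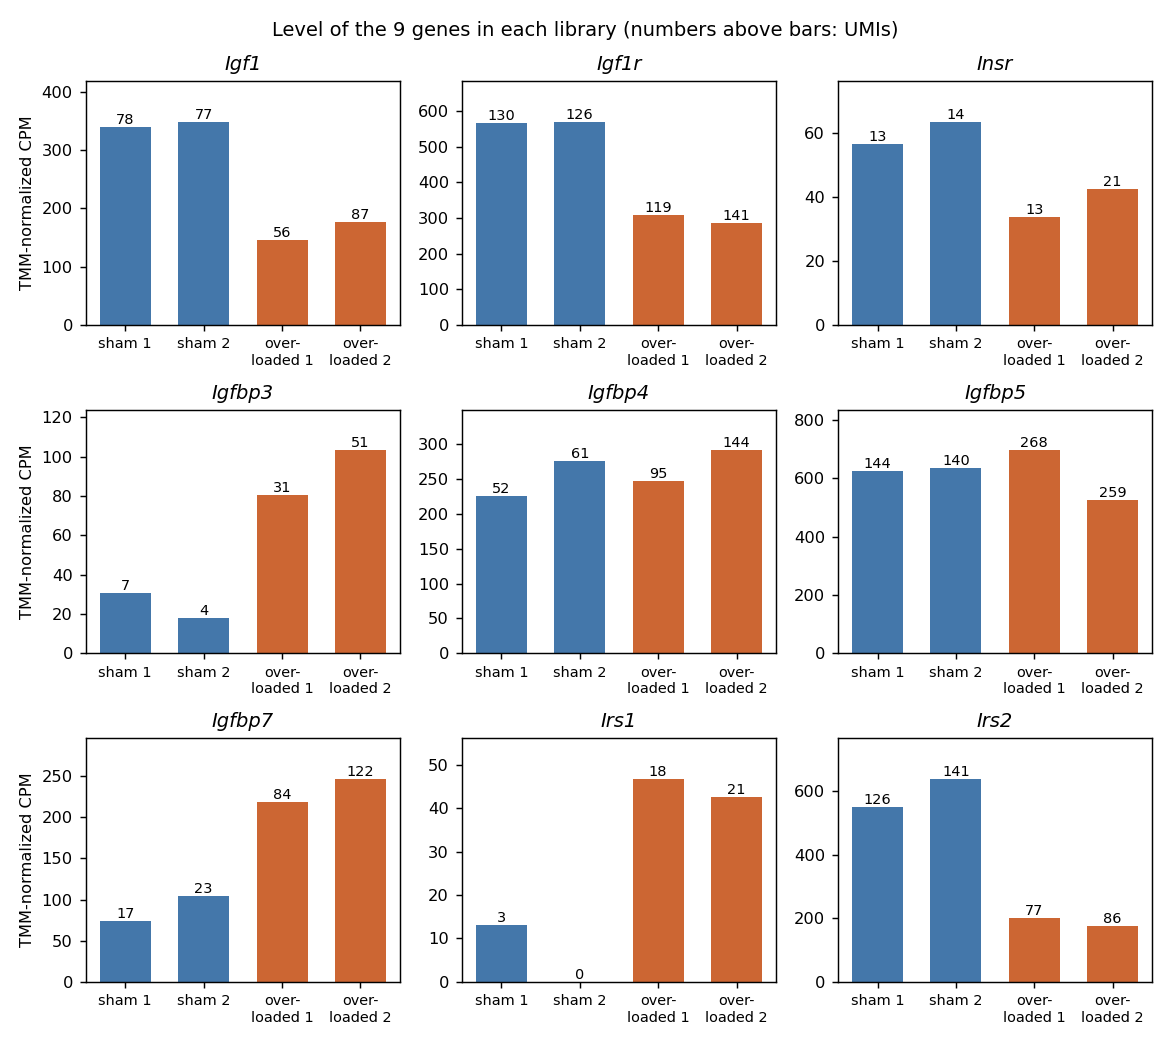
TMM-normalized CPM (vertical axis) of each of the 9 genes in the 2 sham (blue) and 2 overloaded (orange) libraries, with the UMI count above each bar. Igf1, Igf1r, Insr and Irs2 are lower in both overloaded libraries than in both sham libraries, Irs1, Igfbp3 and Igfbp7 are higher in both, and Igfbp4 and Igfbp5 overlap.

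Igf1 encodes the ligand. Its locus in GRCm38, on the plus strand, is chromosome 10 from 87858265 to 87937042 (ENSMUSG00000020053), with 4 exons in its longest transcript of the GENCODE M21 annotation. The sham libraries held 78 and 77 Igf1 molecules, and the overloaded libraries, which were the larger ones, held 56 and 87. In CPM it stood at 340 and 349 in sham and at 146 and 176 in overloaded MuSCs, so both overloaded libraries were below both sham libraries. The group levels were 344 ± 6.57 and 161 ± 21.6 CPM (SD, n = 2 each), and the fitted log2 fold change was -1.08 ± 0.19 (± standard error; 95% interval -1.48 to -0.69; adjusted p = 0.000200 by edgeR's quasi-likelihood test). Per tube, without scaling of the libraries, Igf1 did not pass (-0.12, adjusted p = 0.720). The other IGF ligand, Igf2, had 0 and 0 UMIs in sham against 1 and 1 in overloaded MuSCs and was not tested.

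The receptor Igf1r, on the plus strand of chromosome 7 from 67952827 to 68233668 (ENSMUSG00000005533, 21 exons), had 130 and 126 UMIs in sham against 119 and 141 in overloaded MuSCs. Its CPM values were 566 and 571 in sham and 309 and 286 in overloaded MuSCs, with a gap between the groups far wider than the gap within either. The mean fell from 568 ± 3.48 to 297 ± 16.9 CPM (SD, n = 2 each), with a fitted log2 fold change of -0.94 ± 0.16 (adjusted p = 0.000221 by the same test). Per tube, however, the number of Igf1r UMIs was nearly equal in the groups, and the log2 fold change without scaling of the libraries was 0.02 (adjusted p = 0.924). Igf1r also did not pass with loess offsets (-0.28, adjusted p = 0.155), which were fitted to the trend of fold changes with abundance.

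Insr, which encodes the insulin receptor, is on the minus strand of chromosome 8, at 3122061 to 3279617 (ENSMUSG00000005534, 21 exons). It had 13 and 14 UMIs in sham against 13 and 21 in overloaded MuSCs, or 56.6 and 63.4 against 33.8 and 42.5 CPM. The overloaded values lay below the sham values, but the log2 fold change of -0.63 had a standard error of 0.38, a 95% confidence interval of -1.43 to 0.17 and an adjusted p of 0.191. With the loess offsets Insr was called lower (-0.85, adjusted p = 0.0906). Igf1r made up 90.9% and 90.0% of the molecules of these 2 receptors in the sham libraries and 90.2% and 87.0% in the overloaded libraries, and the exact 95% intervals of all 4 shares overlapped, spanning 80.9% to 95.1%. The split between IGF and insulin receptors therefore did not differ beyond counting error.

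Igf2r, whose product carries IGF-2 and lysosomal enzymes to lysosomes and does not signal as a kinase, did not pass the threshold. It had 130 and 103 UMIs in sham against 208 and 229 in overloaded MuSCs, or 516 ± 70.2 and 502 ± 54.5 CPM (SD, n = 2 each), with a log2 fold change of -0.05 (95% confidence interval -0.40 to 0.31, adjusted p = 0.849 by the same test). Igf2r was called higher per tube (0.91, adjusted p = 0.000603) and with the loess offsets (0.71, adjusted p = 0.000542). There were 1.10 molecules of Igf1r per molecule of Igf2r over the sham libraries and 0.595 over the overloaded libraries. Insrr, the remaining receptor of the family, had 1 count in each group.

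Irs2, one of the main adapters between these receptors and PI3K, showed the largest fall of the 9 genes. The gene is on the minus strand of chromosome 8, at 10984681 to 11008458 (ENSMUSG00000038894, 2 exons). There were 126 and 141 molecules in the sham libraries and only 77 and 86 in the larger overloaded libraries. Levels were 594 ± 63.8 CPM in sham and 187 ± 18.4 CPM in overloaded MuSCs (SD, n = 2 each), with a fitted log2 fold change of -1.67 ± 0.18 (95% interval -2.04 to -1.30, adjusted p = 1.59e-06 by the same test). Irs2 was also lower in UMIs per tube, at -0.71 (adjusted p = 0.00849), where 4.58% of tested genes were called lower.

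Irs1, the other adapter, moved the opposite way from a very low level. It is on the minus strand of chromosome 1, at 82233101 to 82291416 (ENSMUSG00000055980, 2 exons). The counts were 3 and 0 in sham and 18 and 21 in overloaded MuSCs, or 13.1 and 0 against 46.8 and 42.5 CPM. Both overloaded libraries were above both sham libraries. The ratio of the group totals per scaled library size was 6.67 (exact 95% interval 2.12 to 33.7, counting error only), and the fitted log2 fold change was 2.67 (standard error 0.67, adjusted p = 0.00375 by the same test). The size of this change is poorly fixed: without sham replicate 2 it was 1.70, and without sham replicate 1, which leaves no sham count, it was 7.03, a fitted value that depends on the prior count. With the loess offsets Irs1 did not pass the threshold (log2 fold change 0.62, adjusted p = 0.598), but in the lowest bin of 10 by abundance, which includes Irs1, these offsets left a median of -0.32 over the genes of that bin.

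The pair of substrates can be compared within each library, which needs no scaling between libraries. Irs1 made up 2.33% of Irs1 and Irs2 molecules in sham replicate 1 (exact 95% interval 0.482% to 6.65%) and 0% in sham replicate 2 (0% to 2.58%). In the overloaded libraries its share was 18.9% (11.6% to 28.3%) and 19.6% (12.6% to 28.4%). The intervals of the groups did not overlap, while those within each group did. Irs2 nevertheless remained the more abundant of the pair, with 4.28 and 4.10 molecules per molecule of Irs1 in the overloaded libraries and 42.0 in sham replicate 1, the sham library that held Irs1.

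**Figure D2:**
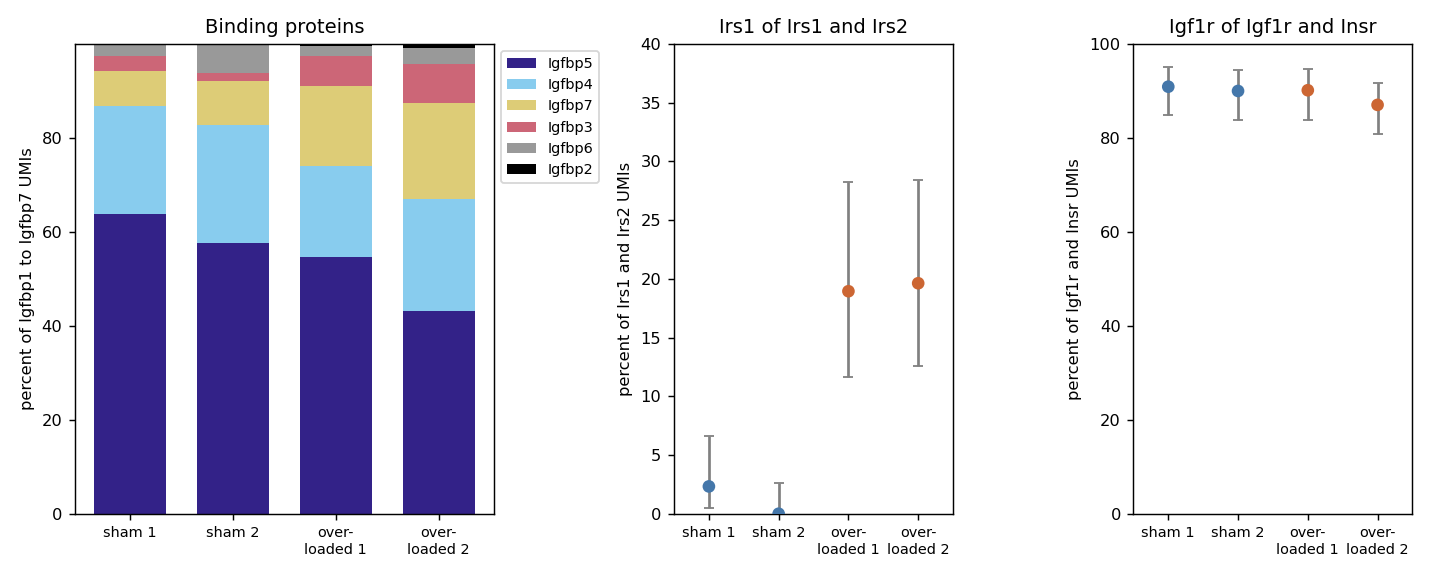
Shares within gene families in each library, in percent of UMIs: Igfbp1 to Igfbp7 (stacked bars), Irs1 of Irs1 and Irs2, and Igf1r of Igf1r and Insr (points, with exact 95% intervals as lines; blue sham, orange overloaded). The Irs1 share is at or under 2.33% in sham and at 18.9% and 19.6% in overloaded libraries, the Igfbp7 share is at or under 9.47% in sham and at 17.1% and 20.3% in overloaded libraries, and the Igf1r share stays between 87.0% and 90.9%.

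Igfbp3 encodes the binding protein that carries most IGF in the circulation. It is on the minus strand of chromosome 11, at 7206086 to 7213923 (ENSMUSG00000020427, 5 exons). The sham libraries held 7 and 4 Igfbp3 molecules and the overloaded libraries 31 and 51, so that both overloaded libraries were the higher ones. Levels were 24.3 ± 8.73 and 91.9 ± 16.0 CPM (SD, n = 2 each), with a fitted log2 fold change of 1.91 ± 0.42 (95% interval 1.04 to 2.79, adjusted p = 0.00137 by the same test).

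Igfbp7, whose product binds IGFs weakly and is found in the extracellular matrix and around vessels, rose as well. It is on the minus strand of chromosome 5, at 77349240 to 77408041 (ENSMUSG00000036256, 6 exons). The libraries held 17 and 23 molecules in sham and 84 and 122 in overloaded MuSCs, with no overlap in CPM (74.0 and 104 against 218 and 247). The mean rose from 89.1 ± 21.3 to 233 ± 20.3 CPM (SD, n = 2 each), with a fitted log2 fold change of 1.39 ± 0.24 (95% interval 0.89 to 1.90, adjusted p = 0.000205 by the same test).

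Igfbp5, which is induced in differentiating myoblasts, had the highest level of the 9 genes in both groups. It is on the minus strand of chromosome 1, at 72857932 to 72874884 (ENSMUSG00000026185, 4 exons), and had 144 and 140 UMIs in sham against 268 and 259 in overloaded MuSCs. The sham libraries were nearly equal, at 627 and 634 CPM, and the overloaded libraries lay on either side of them, at 697 and 524 CPM. The log2 fold change was -0.05 ± 0.17 (95% interval -0.42 to 0.31, adjusted p = 0.824 by the same test). Igfbp5 was called higher, however, per tube (0.89, adjusted p = 0.000255) and with the loess offsets (0.78, adjusted p = 0.000117).

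Igfbp4, an inhibitor of IGF action that proteases of the pappalysin family cleave, is on the plus strand of chromosome 11, at 99041244 to 99054392 (ENSMUSG00000017493, 4 exons). It had 52 and 61 UMIs in sham against 95 and 144 in overloaded MuSCs. In CPM the groups overlapped, at 226 and 276 against 247 and 292, and the log2 fold change was 0.11 ± 0.19 (95% interval -0.29 to 0.51, adjusted p = 0.669 by the same test). Igfbp4 was called higher with library sizes alone (0.39, adjusted p = 0.0954), per tube (1.08, adjusted p = 0.00212) and with the loess offsets (0.52, adjusted p = 0.0338). Igfbp6, which prefers IGF-2, had 6 and 15 UMIs in sham against 11 and 20 in overloaded MuSCs, and its log2 fold change was -0.40 (adjusted p = 0.493). Igfbp2 had no count in the sham libraries and 2 and 5 counts in the overloaded libraries. With the sham group set at a floor of 3 counts in all, the ratio of the groups was 1.20. That value leaves out the counting error of the 7 overloaded counts, and Igfbp2 was not tested.

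Together, the binding proteins amounted to 226 and 243 molecules in the sham libraries and 491 and 601 in the overloaded libraries, and their shares varied as follows. Igfbp5 was the most abundant in every library, with 63.7% and 57.6% of these molecules in sham and 54.6% and 43.1% in overloaded MuSCs. The share of Igfbp7 was 7.52% and 9.47% in sham and 17.1% and 20.3% in overloaded MuSCs. That of Igfbp3 was 3.10% and 1.65% against 6.31% and 8.49%. Igfbp4 held 23.0%, 25.1%, 19.3% and 24.0% in the same order of libraries, and these values overlapped. The shares were not tested. The exact 95% intervals of the groups did not overlap for Igfbp7 (at most 13.86% in sham, at least 13.88% in overloaded MuSCs), and they overlapped for Igfbp5, Igfbp3 and Igfbp4.

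By level, the sham order from high to low was Igfbp5, Irs2, Igf1r, Igf1, Igfbp4, Igfbp7, Insr, Igfbp3 and Irs1. Igfbp5 (631 ± 5.23 CPM), Irs2 (594 ± 63.8) and Igf1r (568 ± 3.48) were close. The sham libraries differed in how they ranked Igfbp5 and Irs2, and also Irs2 and Igf1r. In overloaded MuSCs the order was Igfbp5, Igf1r, Igfbp4, Igfbp7, Irs2, Igf1, Igfbp3, Irs1 and Insr. Igf1r (297 ± 16.9 CPM) and Igfbp4 (269 ± 31.5) overlapped, as did Irs2 (187 ± 18.4) and Igf1 (161 ± 21.6; SD, n = 2 for all). Igfbp4 and Igfbp7 met at 247 CPM, and Irs1 and Insr met at 42.5 CPM. A UMI count does not scale with transcript length, although the efficiency of capture can differ between transcripts.

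Which of these changes was seen differed with the scale. The overloaded libraries held more UMIs, and fold changes were lower for abundant genes. When the tested genes were split by abundance into 10 bins of equal size, the median of the log2 fold changes was 0.53 in the lowest bin and -0.74 in the highest, and Igfbp5, Igf1r and Irs2 were at the 98.0, 94.8 and 93.0 percentiles of abundance. Counted as UMIs per tube of 100 cells, without scaling, the median of all genes was 1.01, with 62.0% of genes called higher and 4.58% lower. On that scale 5 of the 9 genes were higher (Igfbp3, Igfbp4, Igfbp5, Igfbp7 and Irs1) and Irs2 alone was lower, while Igf1, Igf1r and Insr did not pass. With the loess offsets, 21.3% of genes were called higher and 21.8% lower. There Igfbp3, Igfbp4, Igfbp5 and Igfbp7 were higher, Igf1, Irs2 and Insr were lower, and Igf1r and Irs1 did not pass. The fall of Irs2 and the rises of Igfbp3 and Igfbp7 passed the threshold in all 17 alternative settings that were run.

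**Figure D3:**
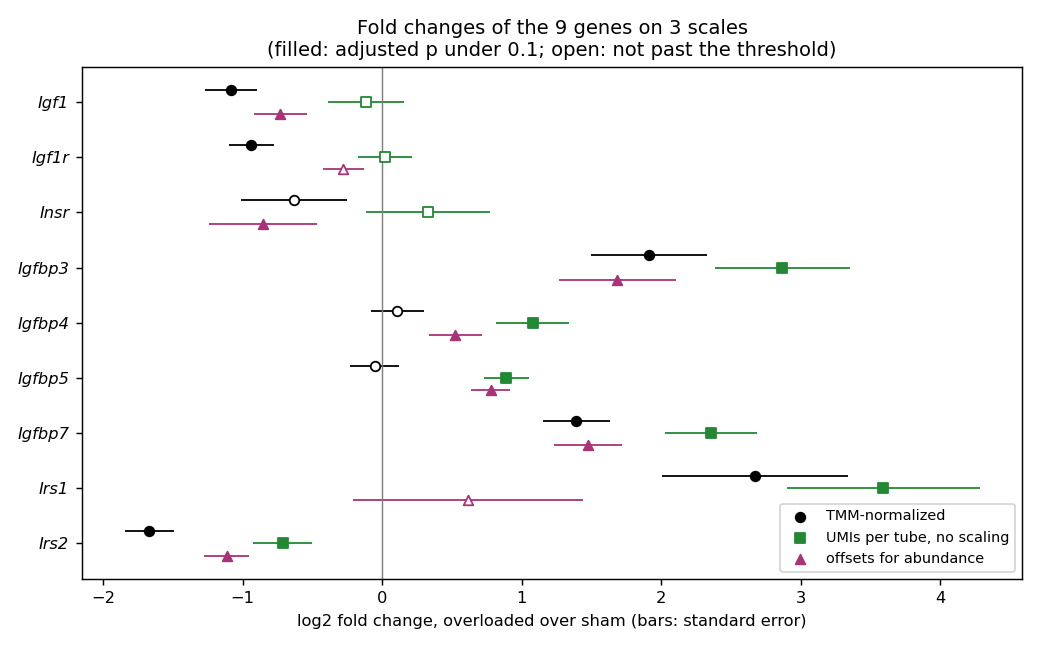
Fitted log2 fold changes, overloaded over sham (horizontal axis), with standard errors as lines, for the 9 genes on 3 scales: TMM-normalized (black circles), UMIs per tube without scaling (green squares) and offsets for abundance (purple triangles). Filled symbols passed an adjusted p of 0.1. Irs2 is lower, and Igfbp3 and Igfbp7 are higher, on each scale, whereas Igf1r moves from -0.94 to 0.02 and Igfbp5 from -0.05 to 0.89 between the TMM-normalized and per-tube values.

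The wider pathway was followed with a list of 69 genes in 8 roles, which holds the 9 genes. Of these, 61 had a row and 48 were tested. Of the 48, 10 were higher, 13 were lower and 25 did not pass, with a median log2 fold change of -0.12. Among the higher ones, Irs1, Igfbp3, Trim63, Fbxo32, Pik3r2 and Mtor would not have passed the filter on sham counts alone. Without the 9 genes, 39 were tested, of which 7 were higher and 10 lower. That is 17.9% higher and 25.6% lower, against a background of 25.8% and 26.3%. Per tube, 26 genes of the whole list were higher and 1 was lower, where 62.0% and 4.58% of all tested genes were. The 13 genes not tested had at most 19 UMIs in any library, and 8 genes of the list were not analysed here.

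**Figure D4:**
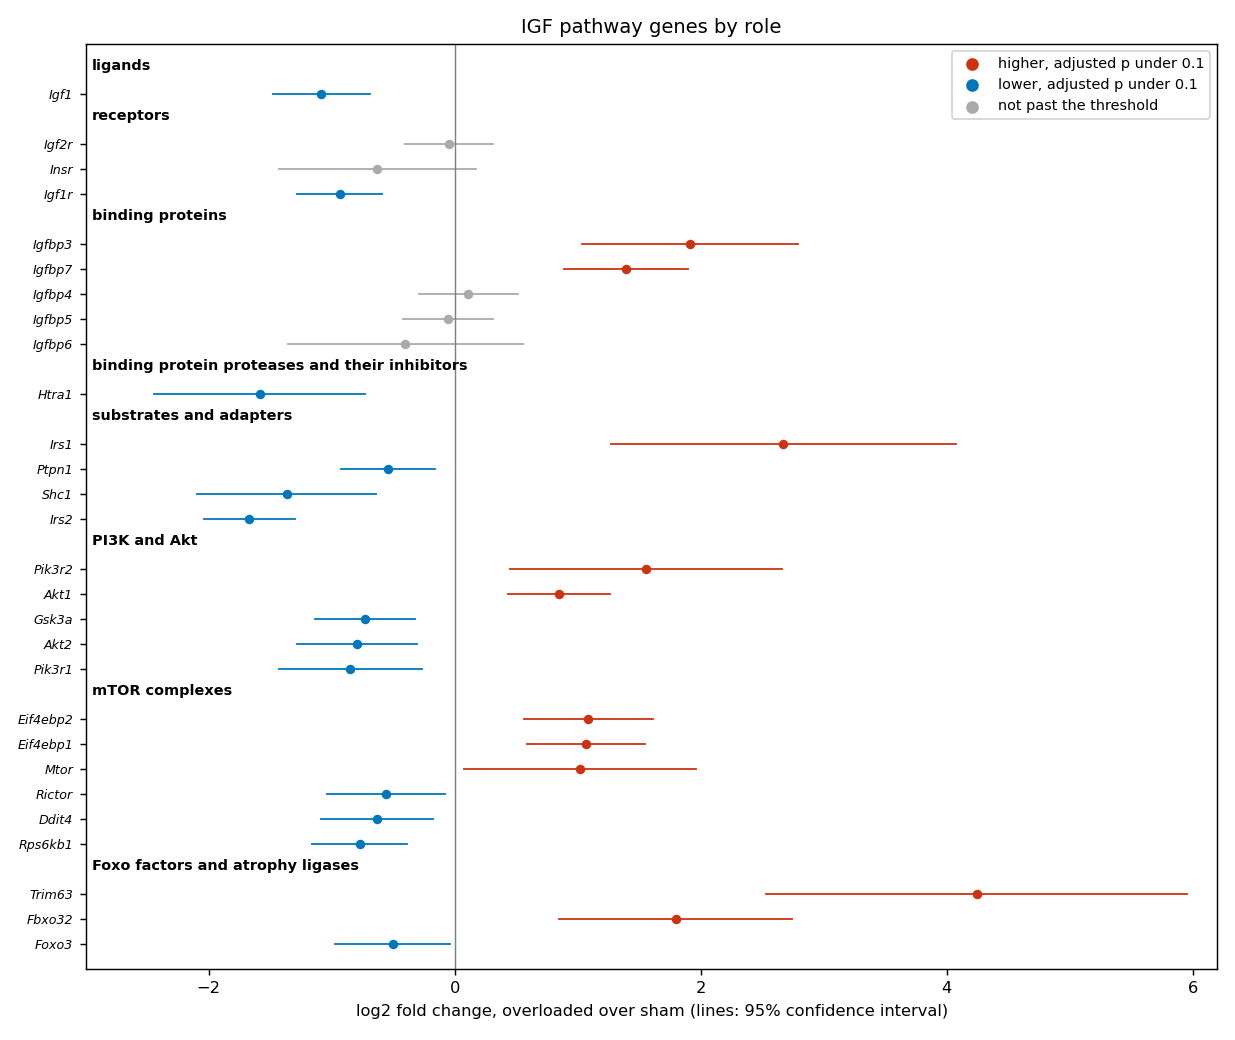
Fitted log2 fold changes, overloaded over sham (horizontal axis), with 95% confidence intervals as lines, for 28 of the 48 tested genes of the IGF pathway list, grouped by role: the 23 that passed an adjusted p of 0.1 (red higher, blue lower) and 5 receptors and binding proteins that did not pass (grey). Genes of each direction stand side by side among the adapters, the PI3K and Akt genes, and the mTOR genes.

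Among substrates and adapters, 11 genes were tested, of which Irs1 was higher and 3 were lower. Shc1, the adapter that links receptors to the Ras and MAP kinase route, had 20 and 24 UMIs in sham against 16 and 17 in overloaded MuSCs, and its log2 fold change was -1.37 ± 0.34 (adjusted p = 0.00400 by the same test). The third was Ptpn1, a phosphatase that acts on the insulin receptor (-0.54, adjusted p = 0.0228), named after its value was seen. Ptpn1 did not pass with library sizes alone, per tube, with the offsets, with DESeq2, without the filter or without sham replicate 2. The only tested gene among the proteases of binding proteins and their inhibitors was Htra1, a secreted serine protease that cleaves binding proteins. It had 20 and 16 UMIs in sham against 14 and 9 in overloaded MuSCs, and its log2 fold change was -1.59 ± 0.41 (adjusted p = 0.00471). Shc1 and Htra1 lost their calls only per tube.

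In the PI3K and Akt group 11 genes were tested, 2 higher and 3 lower. Pik3r1 and Pik3r2 encode regulatory subunits of PI3K and differed in direction. Pik3r1 had 37 and 34 counts in sham and 43 and 33 in overloaded MuSCs (-0.85, standard error 0.28, adjusted p = 0.0188), and Pik3r2 had 4 and 2 against 13 and 22 counts (1.55, standard error 0.53, adjusted p = 0.0234). Pik3r1 did not pass without overloaded replicate 2 (-0.45) or per tube, Pik3r2 did not pass without sham replicate 2 (1.13) or with the offsets, and neither passed with DESeq2. Pik3r2 is, like Irs1, in the lowest bin by abundance, where the offsets left a median of -0.32. Akt2, the isoform best known for insulin action on glucose uptake, was lower (45 and 41 against 36 and 61 counts, log2 fold change -0.79, adjusted p = 0.0102), but not per tube or with DESeq2. Akt1, the isoform best known for growth, was higher (52 and 37 against 127 and 186 counts, log2 fold change 0.84, adjusted p = 0.00229), though not without sham replicate 2 (0.61). Akt1 was named after its value was seen. Gsk3a, a kinase that Akt inhibits, was lower (73 and 56 against 67 and 84 counts, log2 fold change -0.73, adjusted p = 0.00546), but not per tube.

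Of 11 tested genes of the mTOR complexes and their targets, 3 were higher and 3 lower. Eif4ebp1 and Eif4ebp2, which encode repressors of cap-dependent translation that mTOR inactivates, rose to a like degree. Eif4ebp1 went from 102 ± 9.68 to 214 ± 12.3 CPM (SD, n = 2 each; log2 fold change 1.07, adjusted p = 0.00116), and Eif4ebp2 from 84.5 ± 8.66 to 178 ± 16.9 CPM (1.08, adjusted p = 0.00209). Both passed in all 16 alternative fits. Mtor, the kinase itself, had 5 and 7 counts in sham and 17 and 31 in overloaded MuSCs (1.02, adjusted p = 0.0734), a call that was lost in 6 of the 16. Rps6kb1, a kinase activated by mTOR, was lower (78 and 68 against 78 and 88 counts, -0.77, adjusted p = 0.00267), but not per tube or with the offsets. Rictor (-0.56, adjusted p = 0.0551), a subunit of mTOR complex 2, and Ddit4 (-0.63, adjusted p = 0.0240), an inhibitor of mTOR signalling, were the other two and were named after their values were seen. The call of Rictor was lost in 10 of the 16 fits and that of Ddit4 in 6.

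Foxo factors are transcription factors that Akt keeps out of the nucleus, and Fbxo32 and Trim63 are ubiquitin ligases known as their targets in wasting muscle. Fbxo32 had 11 and 2 UMIs in sham against 36 and 53 in overloaded MuSCs, and its log2 fold change of 1.80 ± 0.45 (adjusted p = 0.00384) was 1.03 without sham replicate 2 and 3.40 without sham replicate 1. Trim63 had 1 and 0 UMIs in sham against 14 and 29 in overloaded MuSCs, a ratio of 22.1 per scaled library size (exact 95% interval 3.75 to 891, counting error only; adjusted p = 0.000504 by edgeR's quasi-likelihood test). Its fitted log2 fold change was 4.24. Leaving out each library in turn gave 3.34 to 7.16, the highest without sham replicate 1, which leaves no sham count. Trim63 did not pass with the offsets (1.84, adjusted p = 0.218). It lies, like Irs1, in the lowest bin by abundance, where these offsets left a median of -0.32. Foxo3, named after its value was seen, was lower (-0.50, adjusted p = 0.0754), a call lost in 9 of 16 fits, and Foxo1 was at -0.43 (adjusted p = 0.126). Markers of myofibers, where both ligases are expressed, were also higher. All 5 tested of 7 listed rose, against 25.8% of all genes tested. The summed level of the 7 was 1415 and 793 CPM in sham and 2798 and 2582 CPM in overloaded MuSCs. The most abundant was Acta1 (120 and 66 against 299 and 342 counts). Of the myosin genes, Myh4 had 10 and 5 against 145 and 79 counts (log2 fold change 2.96, adjusted p = 8.81e-05 by the same test). Myh1 and Myh2 had no count in sham or in overloaded replicate 1 and 2 counts each in overloaded replicate 2. The part of myofiber RNA in the values of Fbxo32 and Trim63 was not tested.

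Genes whose pattern over the 4 libraries was closest to that of Irs1 and Irs2 were found by the Euclidean distance between centred log2 CPM values, among tested genes with a mean of at least 20 counts. For Irs1 they were Pnmal2 (distance 0.127), the DNA ligase gene Lig1 (0.146) and the phosphoglucomutase gene Pgm1 (0.165). Pgm1, for example, had 6 and 1 UMIs in sham against 33 and 44 in overloaded MuSCs. For Irs2 they were the teneurin gene Tenm4 (0.0809), the nucleolar protein gene Nop58 (0.0874) and Tpm3-rs7 (0.0898). Tenm4 had 93 and 99 UMIs in sham against 53 and 63 in overloaded MuSCs. With 4 libraries such likeness is a description.

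Markers were read to see which cells the libraries could hold. All 10 MuSC markers listed were detected in every library, and Pax7 had 118 and 107 UMIs in sham against 108 and 137 in overloaded MuSCs (log2 fold change -0.84, adjusted p = 0.000635). Myod1 had 83 and 87 against 176 and 229 (0.29, adjusted p = 0.171). The summed level of the 10 was 7091 and 6193 CPM in sham and 4912 and 4303 CPM in overloaded MuSCs, with Sdc4 the most abundant (422 and 284 against 375 and 345 counts). Of the 10, 6 were lower and 2 were higher, namely Itga7 (log2 fold change 0.67, adjusted p = 0.00355) and Cdh15 (0.47, adjusted p = 0.0490). Over all genes tested, 26.3% were lower and 25.8% higher, which is the background for each marker list. Markers of other cells moved with the groups, and their part in the IGF results was not tested. The 12 leukocyte markers summed to 2 and 6 counts in sham, where 9 of them were at 0, and to 79 and 223 in overloaded MuSCs, with Lyz2 at 0 and 0 against 17 and 38. The 8 endothelial markers summed to 19 and 17 counts in sham and 102 and 97 in overloaded MuSCs. In the overloaded libraries most of these were Fabp4 (1 and 1 against 58 and 54), which was higher, while Tek, the other tested, was lower (10 and 12 against 5 and 11; log2 fold change -1.41, adjusted p = 0.0154), and Cldn5 and Egfl7 were at 0 in sham. The 8 mural markers summed to 181 and 161 against 478 and 694 counts, led by Acta2 (115 and 109 against 356 and 493), with Myh11 at 0 in sham. Of 4 tested, 2 were higher and Tagln was lower (41 and 36 against 49 and 49; log2 fold change -0.61, adjusted p = 0.0453). The sort for YFP was meant to leave out cells in which Cre had not acted.

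The remaining lists differed in direction. The 10 fibro-adipogenic markers summed to 4518 and 4335 CPM in sham and 2824 and 2637 CPM in overloaded MuSCs. Of 5 tested, 4 were lower (Col3a1, Gsn, Dcn and Dpt), against 26.3% of all genes tested. Col3a1 made up much of this sum (508 and 461 against 618 and 683 counts). The fifth, Ly6a, was higher, at 1 and 0 against 22 and 41 counts (adjusted p = 0.000109). Of those not tested, the defining marker Pdgfra had 0 and 0 against 2 and 0 counts, Mfap5 0 and 1 against 9 and 4, Smoc2 0 and 1 against 6 and 4, Pi16 1 and 0 against 0 and 0, and Lum 8 and 6 against 8 and 13, which was lower in CPM in both overloaded libraries. The 5 tenocyte markers summed to 2 and 6 counts in sham and 63 and 63 in overloaded MuSCs, of which Scx, the one tested, gave 1 and 2 against 40 and 61. Tnmd, Fmod and Thbs4 were at 0 in sham and in overloaded replicate 2 and had 1, 7 and 14 counts in overloaded replicate 1, and the remaining marker had 5 counts in sham and 3 in overloaded MuSCs. The 4 Schwann cell markers with a row summed to 5 and 8 against 22 and 24 counts, led by Ngfr (3 and 6 against 15 and 21).

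**Figure D5:**
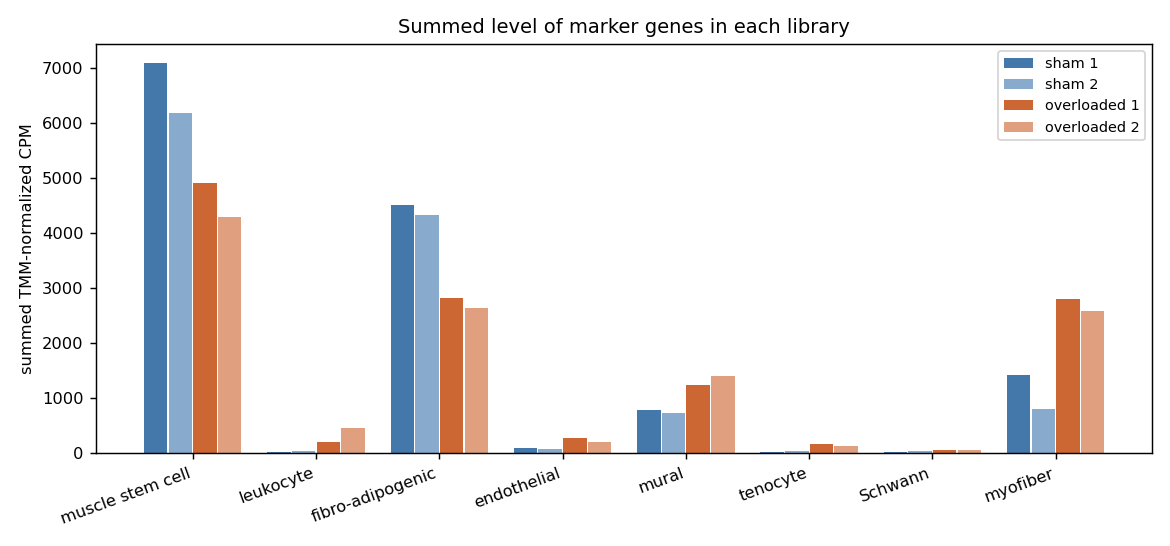
Summed TMM-normalized CPM (vertical axis) of 8 lists of cell type markers in the 2 sham (blue) and 2 overloaded (orange) libraries. Muscle stem cell and fibro-adipogenic sums are lower, and the other 6 are higher, in both overloaded libraries than in both sham libraries.

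Some counts are uncertain because genes overlap on opposite strands and the strand setting of the counting was not given in the sources used here. The 3′ end of Igfbp7 overlaps that of Polr2b, a subunit gene of RNA polymerase II that had 6 and 2 counts in sham and 22 and 29 in overloaded MuSCs (log2 fold change 1.69, adjusted p = 0.0102). The 3′ end of Irs1 overlaps the gene Gm9747, from 82233112 to 82235933 on chromosome 1, which was not analysed here. Irs2 overlaps 9530052E02Rik, which had 1 count in each group. Igfbp7 also overlaps Gm34648, from 77386599 to 77393683 on chromosome 5, which was not analysed here. Igf1 overlaps 1 annotated gene and Insr 2, and Igf1r, Igfbp3, Igfbp4 and Igfbp5 overlap none.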

How the data were processed

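RNA-seq was from 2 sham and 2 overloaded libraries of MuSCs, grouped by the sample titles. The authors extracted barcodes and 6-base UMIs with UMI-tools (1.0.0), aligned reads to GRCm38 with HISAT2 (2.1.0), assigned them with featureCounts (1.6.4) and deposited UMI counts per gene without normalization; the annotation release and strand setting are not given in the sources used here. All 19353 identifiers matched GENCODE M21, 19331 with the same name. Genes were kept by filterByExpr (minimum count 10, minimum total 15), scaled by TMM and tested with glmQLFit and glmQLFTest of edgeR (4.0.16, R 4.3.3; prior count 0.125), with Benjamini-Hochberg adjustment over 7228 genes and a threshold of 0.1. TMM factors were 0.909 and 0.908 for sham and 1.08 and 1.12 for overloaded libraries, and the common biological coefficient of variation was 9.50%. The filter can be met by a single group, so a gene with few sham counts was tested only where its overloaded counts were high. Standard errors were derived from the fold change and the F statistic. Shares have exact Clopper-Pearson intervals of 95%, which cover counting error only.

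A run on simulated counts had 6964 tested genes, of which 159 were changed. It found 53.2% of the 2-fold and 92.7% of the 4-fold changes, 0 in the wrong direction, with 14 false calls. The libraries themselves gave far more calls, 1868 higher and 1898 lower among 7228 genes. Whether the same rates hold for them was not tested. Named pathway genes were the 6 largest rises and 6 largest falls past the threshold without overlap of the groups, besides Igf2, Igf2r, Igfbp2 and Igfbp6, the 3 genes most like the member with the largest rise and the one with the largest fall, and the top gene of each marker list. Members and lists were chosen with earlier results of these data known. Alternatives were UMIs per tube, upper-quartile factors, DESeq2 size factors, no scaling factors beyond library size, loess offsets for abundance (span 0.3), DESeq2 (1.42.0), limma-voom (limma 3.58.1), no filter, at least 10 counts in every library of 1 group, an adjusted p of 0.05, a replicate block, thinned counts and leaving out each library; library totals taken before the filter were added after seeing the data. Python (3.11.15), pandas (2.3.3), scipy (1.17.1) and matplotlib (3.10.9) were used for summaries and plots.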

Additional observations from a re-analysis of the deposited data

How the results depend on the processing

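Irs2, Igfbp3 and Igfbp7 kept direction and call in all 17 alternatives, with log2 fold changes of -1.81 to -0.71, 1.56 to 2.87 and 1.13 to 2.36. Per tube, 4481 genes were higher and 331 lower, with 5 and 1 of the 9 genes and 26 and 1 of the pathway list; Igf1 was at -0.12, Igf1r at 0.022, Insr at 0.33, Igfbp4 at 1.08 and Igfbp5 at 0.89. With loess offsets (1537 genes higher, 1578 lower), Igf1r was at -0.28, Insr at -0.85, Irs1 at 0.62, Igfbp4 at 0.52 and Igfbp5 at 0.78. Library sizes alone called 2694 genes higher and 1351 lower and put Igfbp4 at 0.39, a call, and Igfbp5 at 0.22. Igfbp5 was at 0.041 with upper-quartile factors and 0.025 without the filter, under which 2451 genes were higher and 1803 lower. DESeq2 called 967 genes higher and 1215 lower, and 7 pathway genes lower. The cause of these differences was not tested. The median of all genes was 0.05 with TMM, 0.15 with upper-quartile factors, 0.33 with library sizes alone, 1.01 per tube, 0.02 with loess offsets, 0.23 with DESeq2 and 0.30 without the filter. Leaving out each library in turn, with the lone library assumed to vary like the other group, gave -0.064 to 0.24 for Igfbp4 and -0.24 to 0.19 for Igfbp5, reversed without sham replicate 1 and without overloaded replicate 2, and 1.70 to 7.03 for Irs1. Library totals taken before the filter, chosen after seeing the data, gave 1874 and 1898 genes. With the replicate number as a block, 1806 genes were higher and 1864 lower, and no call of the 9 genes changed; the deviations of same-numbered libraries had a correlation of -0.03, and whether these libraries share mice is not given. Depth limits Irs1, with 3 sham counts in all.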

Other observations

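The regulatory subunits of PI3K were also compared by their shares, a comparison chosen after the values were seen and not tested. Pik3r1 made up 86.0% and 87.2% of the molecules of Pik3r1, Pik3r2 and Pik3r3 in sham and 71.7% and 53.2% in overloaded MuSCs. The exact 95% interval of overloaded replicate 1 (58.6% to 82.5%) overlapped those of both sham libraries, and that of overloaded replicate 2 (40.1% to 66.0%) overlapped neither.

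Among pathway genes with too few counts for the test, Stc2, which encodes a stanniocalcin that inhibits a protease of binding proteins, had 0 and 1 UMIs in sham against 6 and 19 in overloaded MuSCs. The ratio of the group totals per scaled library size was 12.8 (exact 95% interval 2.1 to 526, counting error only). Rptor, which encodes the defining subunit of mTOR complex 1, had 4 and 3 UMIs in sham against 10 and 15 in overloaded MuSCs, and Foxo6 had 5 and 0 against 8 and 13. These genes were picked after their counts were seen.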
